A study of Mus musculus with 6 samples.

Results

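The 7 genes described here encode secreted ADAMTS proteases: Adamts1, Adamts4, Adamts5, Adamts9, Adamts2, Adamts10 and Adamts15. They were found by gene name among the 54551 genes of the deposited tables, and all 7 were present in all 6 libraries. RNA came from granulosa cells of ovaries of C57BL/6 mice aged 21 days, primed for 48 h with PMSG (5 IU), a gonadotropin under which follicles grow. A dose of hCG (5 IU), which acts on the receptor of luteinizing hormone (LH), followed 6 h before collection. There were 3 libraries labelled Gm12840-/-, called labelled knockout here, and 3 labelled wild type, and both groups shared the strain, age and hormones. The labels name neither the part of Gm12840 that was deleted nor how many animals gave each library, so the p-values describe the spread among these 6 samples, which may be technical.

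ADAMTS proteases are secreted zinc metalloproteases with thrombospondin repeats that anchor them to extracellular matrix. They are made as inactive precursors, from which proprotein convertases such as furin remove a prodomain, and they cut large proteoglycans, fibrillar procollagens or microfibril proteins. In the ovulating follicle of the mouse, Adamts1 is induced in granulosa cells after the LH surge through the progesterone receptor, and its protein cuts versican in the matrix of the expanding cumulus. In bulk samples such as these, fewer cells of a type and less RNA per cell cannot be told apart.

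The codons of the zinc-binding site are shown because this site makes the encoded proteins metalloproteases. Shared bases over so short a run do not show how the members are related. Each run of 33 bases, from GENCODE M21 transcripts on mm10, covers 11 codons, and capitals mark the 3 histidine codons that hold the zinc ion.
Adamts1: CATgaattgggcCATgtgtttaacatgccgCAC
Adamts4: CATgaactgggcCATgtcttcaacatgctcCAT
Adamts15: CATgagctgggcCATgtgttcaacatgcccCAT
Adamts9: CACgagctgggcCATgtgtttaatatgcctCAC
Adamts5: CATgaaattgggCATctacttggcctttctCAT
Adamts2: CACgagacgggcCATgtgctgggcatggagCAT
Adamts10: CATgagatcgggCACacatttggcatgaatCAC
Of the 33 bases, Adamts9 and Adamts15 shared 28 with Adamts1, Adamts4 shared 27, Adamts2 shared 22, and Adamts5 and Adamts10 shared 20. An intron interrupted the site in all 7 genes. It followed base 10 in Adamts1, Adamts4, Adamts5 and Adamts15 and base 17 in Adamts9, Adamts2 and Adamts10. In Adamts1 (chromosome 16, minus strand, from 85793827 to 85803113) the site lay in exon 3, at 85799536 to 85799545, and exon 4, at 85799191 to 85799213. The sites of the others lay at 171253210 to 171253219 and 171253893 to 171253915 (Adamts4), 30911681 to 30911690 and 30911255 to 30911277 (Adamts15), 92908477 to 92908493 and 92905285 to 92905300 (Adamts9) and 85887817 to 85887826 and 85878015 to 85878037 (Adamts5). Those of Adamts2 lay at 50775403 to 50775419 and 50776119 to 50776134, and those of Adamts10 at 33538157 to 33538173 and 33538264 to 33538279, on the chromosomes given next. Adamts5 lay on the same chromosome and strand, from 85858170 to 85901125, with a gap of 55056 bp between the genes. On the plus strand, Adamts4 lay on chromosome 1 (171250421 to 171260637), Adamts2 on chromosome 11 (50602084 to 50807573) and Adamts10 on chromosome 17 (33524204 to 33553782). On the minus strand, Adamts9 lay on chromosome 6 (92772699 to 92943492) and Adamts15 on chromosome 9 (30899155 to 30922452).

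The library facts that touch these genes were as follows. Depth, recovered from the deposited FPKM (fragments per kilobase of exon, scaled to library size), ran from 16392098 to 19465847 reads. Mitochondrially encoded genes, often read as a sign of sample quality, held 1.52%, 4.19% and 0.146% of reads for the libraries labelled knockout 1 to 3, against 0.227%, 0.311% and 2.08% for those labelled wild type 1 to 3. The slope of log2(FPKM + 1) on log2 gene length was -0.090, 0.066 and -0.25 in the libraries labelled knockout, against -0.26, -0.21 and -0.023 in those labelled wild type. Gm12840 had 5, 7 and 14 reads in the libraries labelled knockout 1 to 3, against 17, 6 and 5 reads in those labelled wild type, so it was not lower in every library labelled knockout and every direction below rests on the labels. All 11 markers of granulosa cells on a list were above the filter given below, and their summed level ran from 4704 to 9524 FPKM in the libraries labelled knockout and from 6460 to 12384 FPKM in those labelled wild type. Most of this sum was Inha, at 3973 to 8032 FPKM in libraries labelled knockout and 5701 to 10808 FPKM in libraries labelled wild type. Markers of stroma, pericytes and smooth muscle, of which 8 of 12 passed, summed to 89.8 to 113 FPKM in libraries labelled knockout and 61.4 to 118 FPKM in libraries labelled wild type. The largest part was Acta2, at 34.6 to 75.1 FPKM in libraries labelled knockout and 27.2 to 83.2 FPKM in libraries labelled wild type. Theca markers, 6 of 7, summed to 63.8 to 68.5 FPKM in libraries labelled knockout and 42.7 to 85.7 FPKM in libraries labelled wild type, and endothelial markers, 7 of 10, to 21.5 to 26.1 FPKM in libraries labelled knockout and 12.3 to 22.4 FPKM in libraries labelled wild type. No marker of these lists was at 0 in all libraries, and the part of such cells in the results was not tested.

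Adamts1 was the most abundant member in all 6 libraries. It had 138, 210 and 47.8 FPKM in the libraries labelled knockout 1 to 3, against 33.8, 60.9 and 147 FPKM in those labelled wild type 1 to 3. Labelled knockout 2 was highest and labelled wild type 1 lowest, 6.21-fold apart, and the groups overlapped. The reads behind these values ran from 2661 (95% interval 2561 to 2764) to 20336 (20057 to 20618), so the gap between libraries is far wider than counting error. The group means were 132 ± 81.2 FPKM in the libraries labelled knockout and 80.6 ± 59.1 FPKM in those labelled wild type (SD, n = 3 each). The log2 fold change of knockout over wild type on the log2(FPKM + 1) scale, where a fold change understates the change of low genes, was 0.72 with a 95% interval of -0.98 to 2.42 (adjusted p = 0.993 by limma). Its mean level was above 95.3% of the 12495 genes that passed a filter of FPKM over 1 in at least 3 libraries, and its spread over the 6 libraries was wider than in 96.4% of them.

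Adamts4, which cuts aggrecan and versican, had 4.18, 6.54 and 1.82 FPKM in the libraries labelled knockout 1 to 3, against 3.07, 2.98 and 6.58 FPKM in those labelled wild type 1 to 3. The highest values, in labelled knockout 2 and labelled wild type 3, were nearly equal, and the lowest was in labelled knockout 3. The means were 4.18 ± 2.36 FPKM in libraries labelled knockout and 4.21 ± 2.06 FPKM in libraries labelled wild type (SD, n = 3 each), and the log2 fold change was -0.05 (-1.08 to 0.98, adjusted p = 0.994 by limma).

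Adamts9, another protease that cuts versican, had 10.9, 21.7 and 9.39 FPKM in the libraries labelled knockout 1 to 3, against 7.89, 8.56 and 14.0 FPKM in those labelled wild type 1 to 3. As for Adamts1, labelled knockout 2 was highest, labelled wild type 3 next and labelled wild type 1 lowest. The means were 14.0 ± 6.71 FPKM in the libraries labelled knockout and 10.2 ± 3.37 FPKM in those labelled wild type (SD, n = 3 each), with a log2 fold change of 0.38 (-0.51 to 1.26, adjusted p = 0.993 by limma). Adamts9 shares 1381 exonic bases with A730049H05Rik on the opposite strand, whose level was 48.0, 52.3 and 35.8 FPKM in the libraries labelled knockout and 26.5, 29.3 and 40.9 FPKM in those labelled wild type. If the shared bases had been counted to Adamts9 at that density, they would make up from 22.1% of its value in labelled knockout 2 to 40.6% in labelled knockout 1. Its level is uncertain to that extent, since the kit does not mark strand and the sources used here do not say how overlapping reads were counted.

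Adamts5, an aggrecan-cutting protease that is a main one in mouse cartilage, ran the other way across libraries. It had 2.12, 2.43 and 4.50 FPKM in the libraries labelled knockout 1 to 3, against 4.10, 2.49 and 2.27 FPKM in those labelled wild type 1 to 3. Labelled knockout 3 and labelled wild type 1, among the lowest for Adamts1, were the highest for Adamts5, its neighbour on chromosome 16. The means were 3.017 ± 1.296 FPKM in the libraries labelled knockout and 2.95 ± 0.999 FPKM in those labelled wild type (SD, n = 3 each), with a log2 fold change of 0.0072 (-0.71 to 0.72, adjusted p = 0.999 by limma).

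Adamts2, which removes the amino-terminal propeptide of fibrillar procollagens, and Adamts10, which binds fibrillin microfibrils, varied little. Adamts2 had 19.0, 23.2 and 22.6 FPKM in the libraries labelled knockout 1 to 3, against 25.7, 14.9 and 18.6 FPKM in those labelled wild type 1 to 3. Its highest and lowest values were both in libraries labelled wild type, and its log2 fold change was 0.15 (-0.47 to 0.77, adjusted p = 0.993 by limma). Adamts10 had 17.9, 16.5 and 17.4 FPKM in the libraries labelled knockout, against 20.3, 15.3 and 16.5 FPKM in those labelled wild type. Its highest library exceeded its lowest 1.32-fold, where the median of all tested genes was 2.34-fold, and 94.1% of tested genes spread more widely over the 6 libraries. Its log2 fold change was 0.00010 (-0.49 to 0.49, adjusted p = 1.00 by limma).

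Adamts15, which can cut aggrecan and versican, was barely detected. It had 0.0516, 0.0686 and 0.0564 FPKM in the libraries labelled knockout, on 10, 13 and 9 reads, against 0.0325, 0.0685 and 0.0221 FPKM in those labelled wild type, on 5, 12 and 5 reads. Counting error alone is wide at this depth, with 95% intervals of 6.92 to 22.2 for 13 reads and 1.62 to 11.7 for 5 reads, and its log2 fold change was not tested with the other members. It was the only member of the 7 that did not pass the filter.

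**Figure D1:**
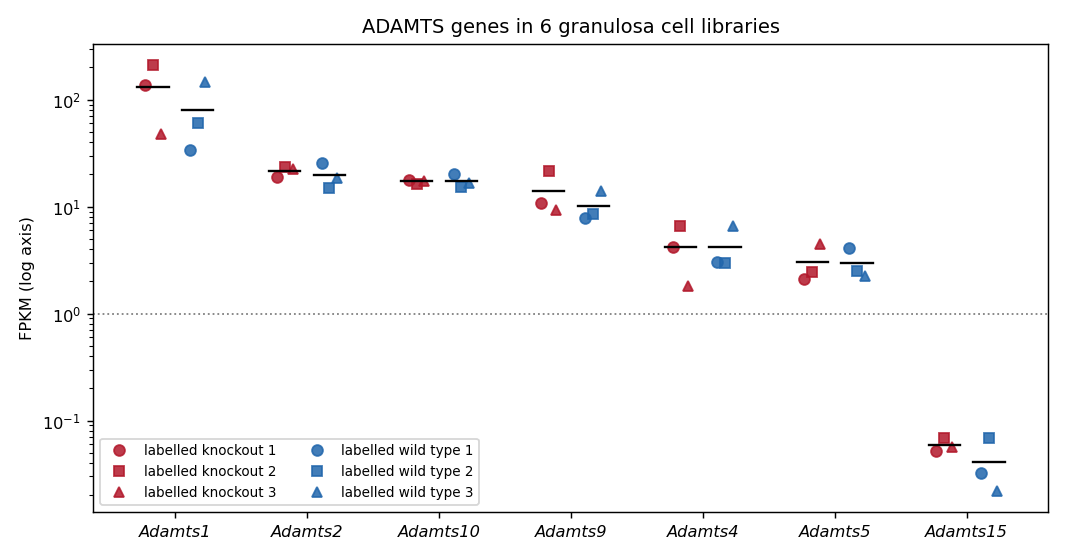
FPKM (log axis) of the 7 ADAMTS genes, ordered by mean; each point is 1 library, red for labelled knockout and blue for labelled wild type, marker shape gives the number in the label, black bars are group means and the dotted line is 1 FPKM. Adamts1 lies above the other members in every library, the groups overlap for all 7 genes, and Adamts15 lies below 0.07 FPKM.

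In order of mean level over the 6 libraries, the members were Adamts1 (106 ± 69.4 FPKM), Adamts2 (20.7 ± 3.89), Adamts10 (17.3 ± 1.72), Adamts9 (12.1 ± 5.19), Adamts4 (4.19 ± 1.98), Adamts5 (2.98 ± 1.04) and Adamts15 (0.050 ± 0.019, SD, n = 6). Adamts1 exceeded Adamts2 in 6 of 6 libraries, by 2.09 ± 1.14 on the log2 FPKM scale, and Adamts9 exceeded Adamts4 in 6 of 6, by 1.58 ± 0.44. Adamts5 exceeded Adamts15 in 6 of 6 libraries, by 5.94 ± 0.81. Adamts2 exceeded Adamts10 in 5 of 6 libraries, by 0.24 ± 0.20. Adamts10 over Adamts9 (0.61 ± 0.61, in 5 of 6) and Adamts4 over Adamts5 (0.41 ± 1.12, in 4 of 6) did not differ beyond the spread over libraries. The order was the same in the mean of either labelled group and after the length trend was removed. GENCODE M21 gives Adamts10 more exonic bases than the deposited tables, and with its lengths, tried after the data were seen, Adamts10 would stand at 11.4 FPKM, below Adamts9 at 12.1 FPKM.

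Adamts1 was also the largest part of the summed level of the 7 genes. The sum was 192, 280 and 104 FPKM in the libraries labelled knockout 1 to 3, against 94.9, 105 and 205 FPKM in those labelled wild type 1 to 3. Adamts1 made up 71.8%, 74.9% and 46.1% of it in the libraries labelled knockout, against 35.6%, 57.9% and 71.7% in those labelled wild type. Adamts2 made up 9.92%, 8.29% and 21.8% of the sum in the libraries labelled knockout and 27.1%, 14.2% and 9.07% in those labelled wild type. Its share was large where that of Adamts1 was small, but parts of 1 sum are tied to each other. The level of Adamts2 itself ran only from 14.9 to 25.7 FPKM.

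**Figure D2:**
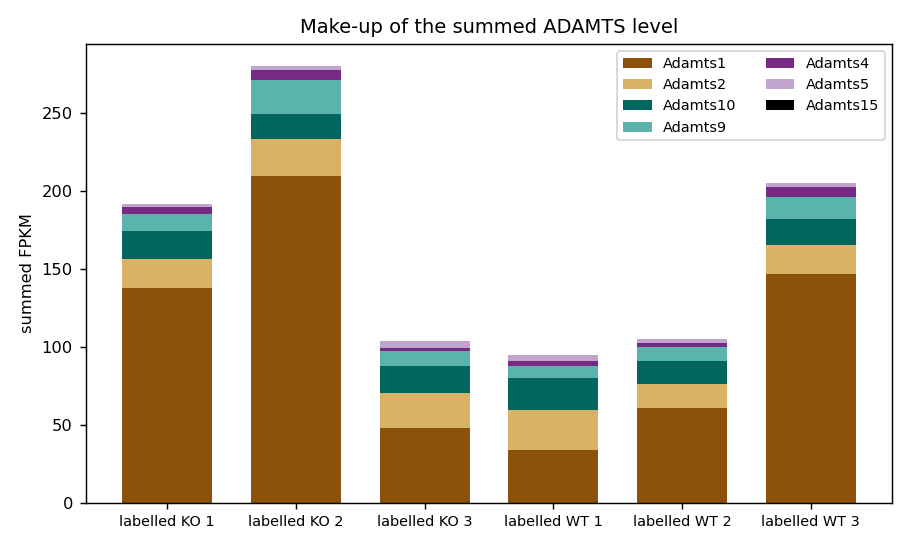
Summed FPKM of the 7 ADAMTS genes in each library, labelled knockout 1 to 3 and then labelled wild type 1 to 3, with each gene's part in its own colour (Adamts15 is too low to see). The sum reaches 280 FPKM in labelled knockout 2 and 205 FPKM in labelled wild type 3, and Adamts1 makes up over 70% of it in both and in labelled knockout 1.

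The design's comparison asked whether their level depended on the label, knockout against wild type. Of the 6 tested members, limma called 0 at an adjusted p under 0.05, where it called 0 (0.0%) of all 12495 genes tested, and 0 members reached an unadjusted p under 0.05, which 91 genes (0.728%) reached. By limma-voom, run on recovered reads, 0 members and 0 genes passed, and 75 genes (0.6%) had an unadjusted p under 0.05. The groups overlapped for all 6 members, and they did not overlap for 3.53% of the tested genes. Of the 6 log2 fold changes, 5 were above 0 and 1 below, and over all tested genes 5628 were above and 6867 below, with a median of -0.04. Those of Adamts10 (0.00010), Adamts5 (0.0072) and Adamts4 (-0.05) lay near 0 and changed sign in some alternative settings, so the count of signs shows no lean. The interval of Adamts1 holds log2 fold changes from -0.98 to 2.42, so a p that misses the threshold does not show that the groups were alike. Without replicate 3 of both labels, 1 of 6 members, Adamts1, was called (log2 fold change 1.88, adjusted p = 0.0198 by limma), as were 27.6% of all tested genes. The members Adamts1, Adamts4 and Adamts9 then had an unadjusted p under 0.05, as did 44.6% of all tested genes, so neither share stands out. The libraries kept then differ in mitochondrial share as well, all labelled knockout above all labelled wild type, and the label and the share cannot be told apart.

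Some members differed between libraries along a split by the mitochondrial read share, though not in the full order of that share. In the 3 libraries where this share was above the median of the 6, labelled knockout 1, labelled knockout 2 and labelled wild type 3, Adamts1, Adamts4 and Adamts9 were all higher than in the other 3. So were 31.4% of the tested genes. Adamts5 was lower there than in the other 3, as were 34.9% of the tested genes, with 2.43 FPKM in labelled knockout 2 close to 2.49 FPKM in labelled wild type 2. Adamts2, Adamts10 and Adamts15 did neither. Some marker lists followed the same split beyond these shares of all genes, and others did not. All 5 erythroid markers were lower in these 3 libraries than in the other 3, as were 7 of 8 of the ovarian surface epithelium, and 7 of 9 of oocytes, of which 1 was higher. Of the 11 granulosa markers 5 were lower and 0 higher, and of the 6 leukocyte markers 1 was lower and 0 higher. Higher there were 5 of 8 stromal, 3 of 6 theca, 3 of 7 endothelial and 1 of 6 cumulus markers, while 1 theca and 1 endothelial marker were lower. Erythroid markers summed to 473 to 3512 FPKM in the libraries labelled knockout and 613 to 4455 FPKM in those labelled wild type. Surface epithelium markers, 8 of 8 above the filter, summed to 73.1 to 312 FPKM in libraries labelled knockout and 103 to 314 FPKM in libraries labelled wild type, and oocyte markers, 9 of 9, to 244 to 421 FPKM in libraries labelled knockout and 269 to 490 FPKM in libraries labelled wild type. Cumulus markers, 6 of 6, summed to 190 to 421 FPKM in libraries labelled knockout and 369 to 441 FPKM in libraries labelled wild type, and leukocyte markers, 6 of 9, to 40.8 to 64.6 FPKM in libraries labelled knockout and 40.7 to 68.0 FPKM in libraries labelled wild type. The part of the mitochondrial share and of other cells in the levels of the ADAMTS genes was not tested.

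**Figure D3:**
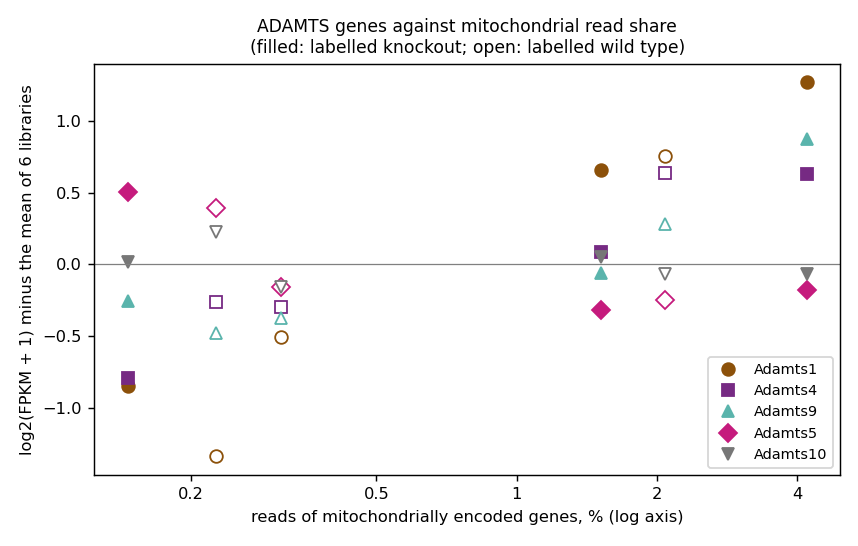
log2(FPKM + 1) of 5 ADAMTS genes, minus each gene's mean over the 6 libraries, against the percentage of reads from mitochondrially encoded genes (log axis); filled markers are libraries labelled knockout and open markers those labelled wild type. Adamts1 reaches 1.27 in the library with 4.19% mitochondrial reads and -1.33 in one with 0.227%, Adamts5 runs the other way, and Adamts10 stays between -0.16 and 0.22.

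Both sides of this split held both labels, so differences could be set within each. Between the libraries labelled knockout 1 and 2 and the library labelled wild type 3, the difference in log2(FPKM + 1) was 0.21 for Adamts1, -0.28 for Adamts4, 0.13 for Adamts9, 0.0024 for Adamts5, 0.17 for Adamts2 and 0.057 for Adamts10. Between the library labelled knockout 3 and the libraries labelled wild type 1 and 2 it was 0.071 for Adamts1, -0.51 for Adamts4, 0.17 for Adamts9, 0.39 for Adamts5, 0.19 for Adamts2 and -0.018 for Adamts10. The difference was negative on both sides for Adamts4 and positive on both sides for Adamts1, Adamts9, Adamts5 (0.0024 on 1 side) and Adamts2. On each side, 1 of the labels had only 1 library. How many of all tested genes kept a sign was not counted, so keeping a sign is not read as a result for any member. With the side as a term, the log2 fold change of Adamts1 was 0.14 (-0.52 to 0.79, adjusted p = 1.00 by limma), against 0.72 with the label alone. That of Adamts4 was -0.39 (-0.85 to 0.059, unadjusted p = 0.0802, adjusted p = 1.00). In this fit 0 of 6 members and 1 gene (0.008%) were called, and 0 members and 2.42% of all genes had an unadjusted p under 0.05. With the length slope as a covariate, Adamts4 had a log2 fold change of -0.37 (-0.68 to -0.064, unadjusted p = 0.0242, adjusted p = 0.939 by limma). It was the only 1 of 6 members with an unadjusted p under 0.05 in that fit, which 5.02% of all tested genes reached, and 0 members and 1 gene (0.008%) were called.

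**Figure D4:**
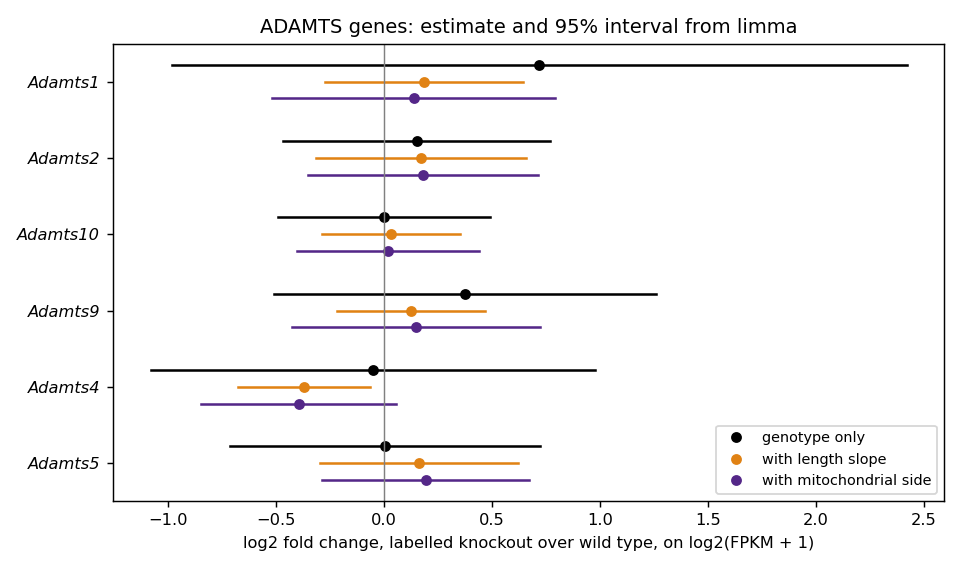
log2 fold change of labelled knockout over labelled wild type on log2(FPKM + 1), with 95% intervals from limma, for the 6 tested ADAMTS genes; black is the fit with the label alone, orange adds the length slope and purple the mitochondrial side. Every interval includes 0 except that of Adamts4 with the length slope (-0.68 to -0.064), and the estimate for Adamts1 is 0.72 with the label alone, 0.19 with the slope and 0.14 with the side.

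Ratios of members within a library leave out whatever scales both genes alike. Adamts1 over Adamts4 was 32.9, 32.1 and 26.2 in the libraries labelled knockout 1 to 3, against 11.02, 20.5 and 22.3 in those labelled wild type 1 to 3. The groups did not overlap, with means of 30.4 ± 3.65 in libraries labelled knockout and 17.9 ± 6.06 in libraries labelled wild type (SD, n = 3 each). The pair was picked after its values were seen, as the only 1 of 15 pairs of tested members with no overlap, and 3.93% of all pairs of tested genes had none, so the count is near what other pairs of genes gave.

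Some genes had library profiles close to those of the members. Likeness was the mean absolute difference of log2(FPKM + 1), centred per gene over the 6 libraries, against 10682 other tested protein-coding genes, and it carries no test. Closest to Adamts1 were Zfp36l2 (0.118), Dusp4 (0.126) and Adam9 (0.127), each high in the same 3 libraries. Closest to Adamts4 were Insig2 (0.0464), Tenm3 (0.0534) and Thbs4 (0.0544), and closest to Adamts9 were Bptf (0.0398), Chml (0.0428) and Rfx7 (0.0468). Closest to Adamts5 were Rasip1 (0.0338), Bet1 (0.0575) and Lamc3 (0.0662). Those of Adamts2 were Fam71a (0.0369), Megf6 (0.0471) and Csdc2 (0.0702), and those of Adamts10 were Cr1l (0.0340), Tmem87a (0.0381) and Mccc1 (0.0415). Among the members, Adamts2 and Adamts10 were closest (0.157) and Adamts1 and Adamts5 farthest apart (1.14).

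RefSeq (GRCm38.p6) gave promoters for 3 of the 7 members, and these are shown. Adamts1 and Adamts9 had their 3 highest libraries in the same order and Adamts2 did not. Those 3 libraries were the ones of high mitochondrial share, in the order of that share. In them 31.4% of tested genes were higher than in the other 3, and how many had this same order was not counted. Whether the promoters bear on the order was not tested. Each run is the 250 bases before the gene's first base in RefSeq, and capitals mark the GC box GGGCGG, the TATA box TATAAA and the cyclic AMP element half-site TGACG, searched on both strands.
Adamts1: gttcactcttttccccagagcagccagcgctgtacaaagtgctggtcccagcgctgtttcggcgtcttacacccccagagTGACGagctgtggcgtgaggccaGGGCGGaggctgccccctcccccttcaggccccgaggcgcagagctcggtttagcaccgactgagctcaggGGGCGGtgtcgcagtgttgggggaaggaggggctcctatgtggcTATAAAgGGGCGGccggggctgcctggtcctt
Adamts9: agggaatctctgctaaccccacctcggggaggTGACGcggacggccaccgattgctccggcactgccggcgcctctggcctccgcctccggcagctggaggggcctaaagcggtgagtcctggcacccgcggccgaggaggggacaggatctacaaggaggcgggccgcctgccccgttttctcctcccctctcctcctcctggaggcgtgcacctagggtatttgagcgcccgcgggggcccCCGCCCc
Adamts2: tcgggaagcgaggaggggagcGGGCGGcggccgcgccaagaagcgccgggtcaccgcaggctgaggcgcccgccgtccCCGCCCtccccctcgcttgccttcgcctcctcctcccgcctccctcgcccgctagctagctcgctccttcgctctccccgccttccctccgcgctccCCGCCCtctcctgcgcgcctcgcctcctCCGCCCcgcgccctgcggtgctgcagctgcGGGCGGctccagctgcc
They lie at chr16:85803114-85803363 on the minus strand, chr6:92943535-92943784 on the minus strand and chr11:50601835-50602084 on the plus strand. The Adamts1 promoter held 3 GC boxes, a TATA box starting 32 bases before the first base, and a half-site. The Adamts9 promoter held 1 GC box and 1 half-site, and that of Adamts2 held 5 GC boxes only. A GC box stood in 32.7% of 32851 promoters of this length, TATAAA in 12.4% and TGACG in 17.8%. The motifs TGTGGT (of RUNX factors, in 14.0% of promoters), TTGCNNAA (of C/EBP factors, 9.56%), TGANTCA (of AP-1, 6.75%) and CCAAT (33.8%) did not match in these windows. A match is a description of letters and not of binding.

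Other secreted ADAMTS proteases were mostly low. Of 12 on a list, 3 passed the filter, 2 with a positive and 1 with a negative log2 fold change (median 0.09), and 0 were called. Adamts7, which cuts the cartilage protein Comp, had 3.83, 4.14 and 2.60 FPKM in the libraries labelled knockout, against 4.14, 4.41 and 4.76 FPKM in those labelled wild type. The groups did not overlap, but 4.136 FPKM in labelled knockout 2 lay close under 4.139 FPKM in labelled wild type 1, and the log2 fold change was -0.28 (adjusted p = 0.993 by limma), or -0.12 without labelled knockout 3. Adamts19 stood at 4.70 ± 2.16 FPKM in the libraries labelled knockout and 3.61 ± 1.04 FPKM in those labelled wild type (SD, n = 3 each). The other 9 reached at most 1.82 FPKM, for Adamts3 in labelled knockout 2. Of 7 ADAMTS-like proteins, which lack the protease domain, only Adamtsl2 passed, at 1.59 ± 0.436 FPKM in libraries labelled knockout and 1.20 ± 0.341 FPKM in libraries labelled wild type.

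Proprotein convertases and inhibitors gave no call either. All 4 convertases passed, 2 positive and 2 negative (median -0.0025). Pcsk5 stood at 69.7 ± 11.8 FPKM in the libraries labelled knockout and 75.9 ± 11.5 FPKM in those labelled wild type (SD, n = 3 each), and Furin at 15.8 ± 8.26 FPKM in libraries labelled knockout and 14.0 ± 10.2 FPKM in libraries labelled wild type. Of 9 inhibitors and clearance receptors, 6 passed, 4 positive and 2 negative (median 0.10). Timp1, an inhibitor mainly of matrix metalloproteases, was the most abundant, at 580, 299 and 1404 FPKM in the libraries labelled knockout 1 to 3, against 1259, 1077 and 397 FPKM in those labelled wild type 1 to 3. Timp3, which inhibits ADAMTS proteases, ran the other way, at 2.61, 6.97 and 0.766 FPKM for labelled knockout 1 to 3 against 0.935, 1.09 and 3.56 FPKM for labelled wild type 1 to 3. The libraries high in Adamts1 were thus high in Timp3 and low in Timp1. They were the 3 libraries of high mitochondrial share, where 31.4% of all tested genes were higher than in the other 3 and 34.9% lower. Neither direction is therefore particular to these genes. Sdc4, a cell-surface proteoglycan, averaged 96.6 ± 43.9 FPKM in libraries labelled knockout and 96.1 ± 25.2 FPKM in libraries labelled wild type. Lrp1, a receptor that takes up ADAMTS proteases, averaged 20.2 ± 8.94 FPKM in libraries labelled knockout and 16.3 ± 3.95 FPKM in libraries labelled wild type.

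Substrates had mostly positive log2 fold changes without a call. Of 20, 17 passed, 15 positive and 2 negative, with a median of 0.47 beside -0.04 for all tested genes, and 0 were called. Versican (Vcan) had 290, 749 and 154 FPKM in the libraries labelled knockout 1 to 3, against 175, 194 and 368 FPKM in those labelled wild type 1 to 3. Labelled knockout 2 was highest and labelled knockout 3 lowest, so the groups overlapped, and the log2 fold change was 0.47 (adjusted p = 0.993 by limma). It was 0.018 with the length slope, 0.041 with the mitochondrial side and -0.13 without labelled knockout 2. Thbs1, a matrix glycoprotein, stood at 121 ± 81.9 FPKM in the libraries labelled knockout and 88.6 ± 69.6 FPKM in those labelled wild type (SD, n = 3 each). Of the 17, 10 were higher in all 3 libraries with a high mitochondrial share than in the other 3, and 1 was lower. Of all tested genes, 31.4% were higher there and 34.9% lower. Col1a2, a chain of type I collagen, averaged 7.92 ± 1.21 FPKM in libraries labelled knockout and 5.31 ± 0.829 FPKM in libraries labelled wild type (log2 fold change 0.50, adjusted p = 0.993 by limma). Bgn, a small proteoglycan, averaged 5.56 ± 0.483 FPKM in libraries labelled knockout and 3.44 ± 1.26 FPKM in libraries labelled wild type (log2 fold change 0.61, adjusted p = 0.993). For these 2 genes the groups did not overlap, and the log2 fold change of Bgn was 0.34 without labelled wild type 2. Col1a2, Col1a1, Col3a1 and Dcn are also on the stromal list, of which all 8 tested markers had positive log2 fold changes (median 0.50).

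Partners of versican in the hyaluronan matrix gave 4 positive and 3 negative log2 fold changes among 7 tested of 13 (median 0.12), and 0 were called. Tnfaip6, which links hyaluronan to heavy chains, stood at 169 ± 73.3 FPKM in the libraries labelled knockout and 212 ± 31.8 FPKM in those labelled wild type (SD, n = 3 each). Ptx3, which stabilises these chains, averaged 106 ± 34.9 FPKM in libraries labelled knockout and 141 ± 19.8 FPKM in libraries labelled wild type, and Itih2, a heavy chain, averaged 9.38 ± 1.18 FPKM in libraries labelled knockout and 5.92 ± 3.15 FPKM in libraries labelled wild type.

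Regulators of the LH response gave 7 positive and 6 negative among 13 tested (median 0.098), and 0 were called. Pgr, the progesterone receptor that Adamts1 induction needs in the mouse, had 1.95, 6.11 and 1.53 FPKM in the libraries labelled knockout 1 to 3, against 7.54, 3.82 and 6.19 FPKM in those labelled wild type 1 to 3. The groups overlapped, since labelled knockout 2 lay above labelled wild type 2. The log2 fold change of Pgr was -0.83 (adjusted p = 0.993 by limma), and -1.29 without labelled knockout 2. Cebpa and Cebpb, factors of luteinization, averaged 118 ± 23.1 and 593 ± 316 FPKM in the libraries labelled knockout, against 167 ± 23.3 and 818 ± 211 FPKM in those labelled wild type (SD, n = 3 each). Cebpa was the last of 4 genes, with Adamts7, Bgn and Col1a2, whose groups did not overlap among the 51 tested on these lists (3.53% among all tested genes), and its log2 fold change was -0.50 (adjusted p = 0.993). Btc, which activates the EGF receptor, averaged 37.6 ± 11.6 FPKM in libraries labelled knockout and 54.5 ± 8.54 FPKM in libraries labelled wild type.

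**Figure D5:**
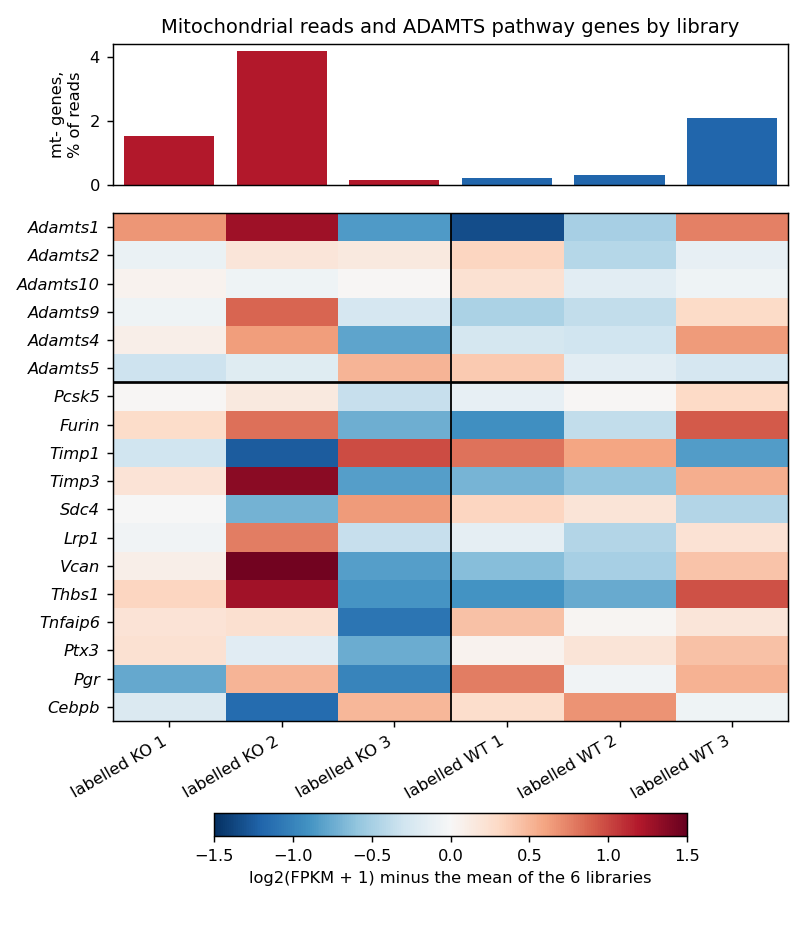
Upper bars give the percentage of reads from mitochondrially encoded genes in each library, and the lower map gives log2(FPKM + 1) minus each gene's mean over the 6 libraries for the 6 tested ADAMTS genes (above the line) and 12 partner genes. Colours run from blue at -1.5 to red at 1.5; Adamts1, Furin, Timp3, Vcan and Thbs1 are highest in the libraries labelled knockout 2 or wild type 3, where Timp1 is lowest.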

How the data were processed

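For each library the authors deposited FPKM values of all genes. The submitters' processing notes list HISAT2 2.0.5 and the build mm10. Per the labels' protocols, a TruSeq RNA kit was used, and such kits do not mark strand. How reads were counted and scaled, and with which annotation, is not given in the sources used here. When FPKM were multiplied by gene length, 100% of values were whole multiples of what 1 read is worth (tolerance 0.01 reads), which gave the reads. Intervals on reads are exact Poisson intervals at 95% and cover counting error only. Of the 7 members, 6 had the same coordinates in GENCODE M21.

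Groups came from the sample titles. limma 3.58.1 in R 4.3.3 fitted log2(FPKM + 1), trended prior variance, with the label as the only term, over 12495 genes with FPKM over 1 in at least 3 libraries. Tests were two-sided, with Benjamini-Hochberg adjustment over these genes. The test was checked on simulated counts, drawn independently for each gene and library. They held no split of the libraries shared by many genes, so the check does not cover the split seen here. Libraries of 1 label differed by more than sampling noise. Members, lists, tests and alternatives were chosen with earlier results of these data known. Besides the members, the text names, per list, the 2 most abundant tested genes and the 2 with the smallest p, Vcan, Pgr and the 3 closest profiles. Other genes were named after their values were seen. Levels of genes that share exonic bases with others are uncertain, and 1 result of this kind is not reported here. No set test was run, and medians and counts of signs only describe the lists. limma called 0 genes of any pathway or marker list.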

Additional observations from a re-analysis of the deposited data

How the results depend on the processing

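limma called 0 members and 0 genes in every alternative run except the following. Without replicate 3 of both groups, which leaves labelled knockout 1 and 2, at 1.52% and 4.19% mitochondrial reads, against labelled wild type 1 and 2, at 0.227% and 0.311%, it called 3451 genes (1409 higher, 2042 lower; 27.6%). Among them were 1 member, Adamts1 (log2 fold change 1.88, adjusted p = 0.0198 by limma), and 15 genes of the pathway lists. In that choice of libraries the label and the mitochondrial share cannot be told apart. With the length slope 1 gene was called, and with the mitochondrial side as a term 1 gene, in neither case a member or pathway gene, and the cause was not tested. The order of the members by level kept 6 of 6 neighbouring pairs, and 5 with GENCODE M21 exon lengths, an alternative added after the data were seen, since Adamts10 gains bases. With the replicate block 0 genes and 0 members were called. Libraries that share a number deviated from their group means with correlations of -0.42, -0.67 and -0.89, and no library was closest to its own number, so the numbers were not taken to pair the samples.

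Several log2 fold changes of uncalled genes changed sign, for causes that were not tested. Without replicate 3 of both groups, Adamts4 was 0.64, Adamts5 -0.37, Adamts10 -0.039, Adamtsl2 -0.027 and Pcsk5 0.13. With library totals, which moved the median of all genes from -0.04 to 0.04, Adamts4 was 0.022 and Sdc4 0.028. With a pseudocount of 5, Adamts10 was -0.0011. With the length slope, Timp1 was 0.14, Sdc4 0.23, Furin -0.18 and Thbs1 -0.079, and with the mitochondrial side Timp1 was 0.17, Sdc4 0.22, Furin -0.22 and Thbs1 -0.12. When 1 library was left out, Adamts1 ran from 0.23 without labelled wild type 1 to 1.32 without labelled knockout 3, Adamts9 from 0.033 to 0.61, Adamts4 from -0.38 to 0.33, Adamts5 from -0.24 to 0.21, Adamts2 from -0.022 to 0.35 and Adamts10 from -0.080 to 0.11. Likewise Adamts19 ran from -0.0063 to 0.58, Timp1 from -0.96 to 0.15, Timp3 from -0.065 to 1.02, Lrp1 from -0.080 to 0.48, Sdc4 from -0.39 to 0.28 and Furin from -0.15 to 0.77. Pcsk5 ran from -0.23 to 0.015, Vcan from -0.13 to 1.00, Thbs1 from -0.056 to 1.05 and Tnfaip6 from -0.66 to 0.0055. With no change of sign, Adamts7 ran from -0.38 to -0.12, Adamtsl2 from 0.11 to 0.33, Bgn from 0.34 to 0.75, Itih2 from 0.33 to 1.02, Ptx3 from -0.68 to -0.19, Pgr from -1.29 to -0.54, Cebpb from -0.98 to -0.15 and Btc from -0.77 to -0.32. Adamts15 rests on 5 to 13 reads, and 3 libraries a group limit all other members.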
